A study of Mus musculus with 4 samples.

Results

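The genes described here make, import and store cholesterol: the enzymes of the mevalonate and sterol pathway, the SREBP2 control system, a regulator of lipoprotein receptors, a sterol carrier and the enzymes that esterify cholesterol. The list named 27 genes by function, and it was drawn up with earlier results of these data known. Each gene was measured by the probe set that carried its symbol alone, and the brightest such probe set was used where there were several. This gave 24 genes of 18782 in all. Acat2, the cytosolic thiolase that starts the pathway, and the esterifying enzymes Soat1 and Soat2 were not analysed here, so no value below describes esterification.

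Cells build cholesterol from acetyl-CoA through mevalonate and isoprenoids, then through squalene and a series of sterol intermediates. The transcription factor SREBP2 raises the genes of this route when membranes hold little sterol, while the proteins INSIG1 and INSIG2 hold its escort SCAP in the endoplasmic reticulum when sterol is plentiful. Alveolar macrophages live in the airspaces of the lung, where they take up and break down surfactant, a lipid film that contains cholesterol.

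Cells were sorted from the lungs of adult mice on the C57BL/6 background, and expression was measured on Affymetrix arrays. The WT group carried floxed Pparg alleles (Ppargfl/fl) without Cre, and the KO group (CD11c-Cre/Ppargfl/fl) also carried a Cre recombinase under the CD11c promoter, so both groups had floxed alleles. Each group had 2 arrays, and each array held cells pooled from 2 mice. The labels describe the WT cells as mature and the KO cells as arrested and immature, and the WT cells were gated as CD11b-low and the KO cells as CD11b-high. CD11c is also expressed by dendritic cells, so the Cre is not limited to macrophages. The question, from the series title, is what PPARγ, a lipid-sensing nuclear receptor, controls in the identity of these cells.

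All values are log2 expression values, and all differences are KO minus WT on that scale. The deposited arrays shared 1 distribution with a median of 3.14, and all 24 genes had a mean above it. Pparg measured 9.69 and 9.75 in WT and 9.59 and 9.73 in KO. Whether its probes fall inside or outside the floxed exons is unknown here, so these values say nothing about deletion. By the test used below, 7.41% of all genes were higher in KO and 6.86% lower. Of the alveolar macrophage markers, 4 of 11 were lower in KO and 0 higher, and their summed linear intensity was 11195 to 12264 in WT and 8922 to 9092 in KO. Itgax, Chil3, Car4 and Plet1 stayed above 10 on every array, and such bright genes weigh most in that sum. Itgax and Siglecf were also genes of the sort gate, so they are no independent check of cell type. Itgam, the gene of the gated CD11b, measured 3.10 and 2.87 in WT and 8.87 and 8.61 in KO. The 4 lower markers were Mertk (-0.48), Siglecf, which went from 9.51 ± 0.10 in WT to 6.24 ± 0.33 in KO (SD, n = 2), Krt79 and Cidec. Krt79 measured 10.18 and 8.48 in WT and 2.996 and 3.29 in KO. Cidec measured 9.71 and 9.59 in WT and 3.96 and 4.01 in KO. Marco (7.22 and 4.43 in WT, 3.04 and 3.37 in KO) and Fabp4 (7.57 and 5.21, then 4.19 and 4.45) were below WT on both KO arrays without passing the test (limma adjusted p = 0.0897 and 0.109). Of the interstitial macrophage markers, 7 of 9 were higher and 0 lower, with summed intensities of 78.2 and 108 in WT and 1445 and 1228 in KO. The other members, Cd163 and Folr2, lay at or below the array median on every array. Of the monocyte markers 4 of 6 were higher and 1, Treml4 (-2.39), lower, with sums of 332 to 365 in WT and 488 to 552 in KO. Among the higher ones, Ccr2 and Cx3cr1 were also counted as interstitial macrophage markers, so the lists are not independent. The others were Ace and Vcan, and Vcan lay below the array median in WT and just above it in KO. Plac8 lay at or below the array median on every array. Type 2 epithelial markers had 1 of 8 higher, Lpcat1, with sums of 181 to 186 in WT and 276 to 278 in KO, and Sftpd and Lamp3 at or below the array median on every array. The higher sum in KO went with Lpcat1 (4.07 and 4.74 in WT, 6.61 and 6.62 in KO) and Abca3 (6.74 and 6.91, then 7.095 and 7.12). The other 7 type 2 markers, Abca3 and the surfactant protein genes among them, did not pass the test. Sums for the other lists were 188 to 231 and 156 to 161 for neutrophils (1 of 6 higher, 1 lower), 24.4 to 27.0 and 358 to 508 for eosinophils (1 of 5 higher), and 87.8 to 101 and 130 to 219 for dendritic cells (1 of 6 higher). They were 33.0 to 39.7 and 39.4 to 40.8 for lymphocytes (0 of 5 changed) and 23.2 to 32.1 and 23.4 to 27.7 for endothelial cells (0 of 3 changed). The lower neutrophil sum in KO went with Csf3r (7.08 and 7.57 in WT, 5.69 and 5.87 in KO), while 4 of the 6 neutrophil markers, S100a8 among them (higher by 1.92), lay above both WT arrays on both KO arrays, as did 25.3% of all genes. Retnlg, which is among these 4, and Mmp9 lay at or below the array median on every array. The eosinophil sum rested on Rnase2a, since Prg2, Epx, Ccr3 and Il5ra lay at or below the array median on every array. The part of these markers in the results below was not tested, and the gate cannot be told apart from the genotype.

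Of the 24 sterol genes 4 passed the test, 3 lower and 1 higher in KO. The fall of Mylip was the largest difference among the 24 genes. Hmgcs1 and Fdps, both in the mevalonate arm, also fell, and Hsd17b7, in the sterol arm, rose. The other 20 genes did not pass the test, limma's moderated test with an adjusted p under 0.05 over all genes. The 4 genes that passed are 16.7% of the 24, near the 14.3% of all 18782 genes. By direction, 1 gene was higher, against 7.41% of all genes, and 3 were lower, against 6.86%. The median difference was 0.08 for the 24 genes and -0.02 for all genes, and the median size of the difference was 0.276 and 0.145. An unadjusted limma p under 0.05 was found for 11 of the 24 genes (45.8%), against 26.7% of all genes. These differences from all genes were not tested. In pools of sorted cells, fewer cells of a type and less RNA per cell cannot be told apart.

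**Figure D1:**
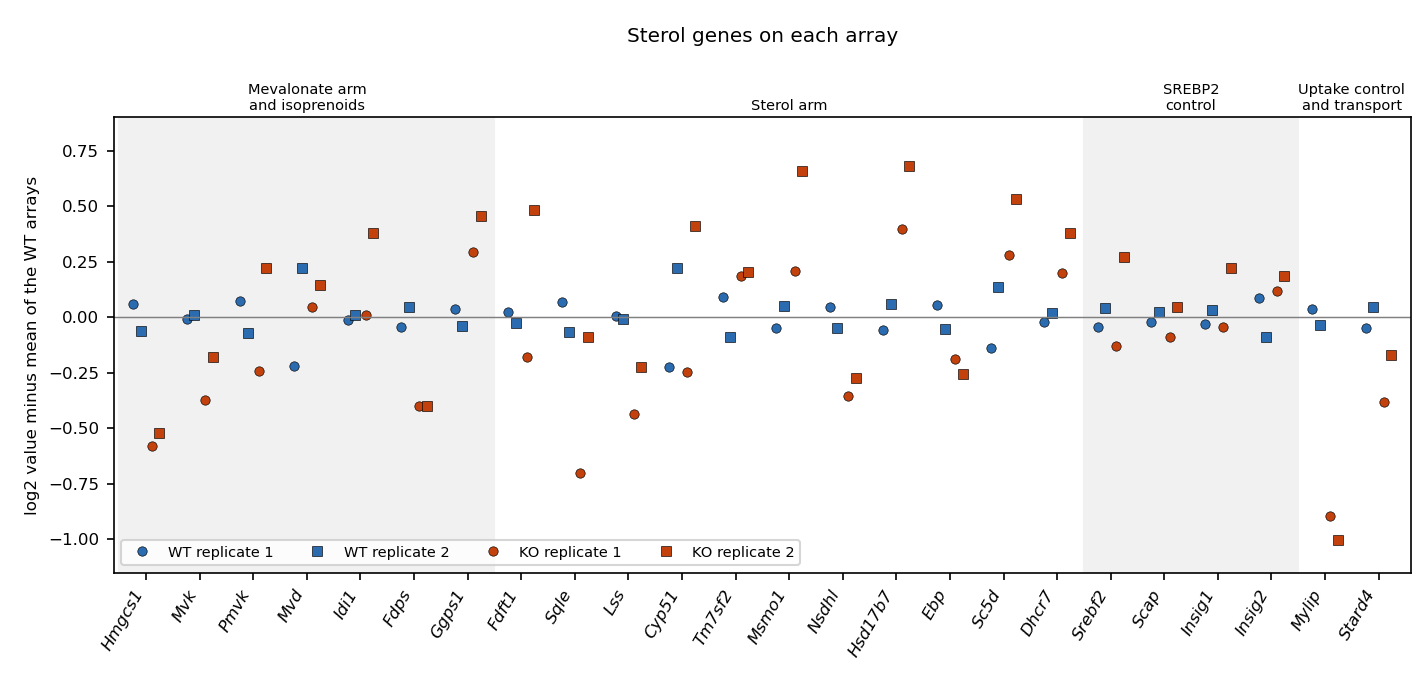
Each point is the log2 value of 1 sterol gene on 1 array minus the mean of the WT arrays for that gene, with WT in blue, KO in orange, replicate 1 as circles and replicate 2 as squares. Mylip lies lowest in KO, and in most genes the KO square lies above the KO circle.

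Mylip encodes IDOL, a ubiquitin ligase that sends receptors of the LDL receptor family to degradation and whose gene is induced by the sterol receptor LXR. Its level was 7.95 and 7.88 on the WT arrays and 7.02 and 6.91 on the KO arrays. Both KO arrays lay below both WT arrays, and the gap between the groups was far wider than the gap within either. The difference was -0.95 ± 0.10 (SE; 95% interval -1.19 to -0.70; limma adjusted p = 0.002), or 1.93-fold lower in KO. With each array left out in turn it ran from -1.003 to -0.893, and each of these 4 fits passed the test (adjusted p from 0.00613 to 0.0206).

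In the mevalonate arm and its isoprenoid branch 2 of 7 measured genes were lower (28.6%) and 0 higher, against 6.86% and 7.41% of all genes. The remaining 5 did not pass, and the median was -0.01. Hmgcs1, the cytosolic HMG-CoA synthase at the head of the arm, measured 6.96 and 6.84 in WT and 6.32 and 6.38 in KO. The groups did not overlap, and the replicates of each lay close together. It fell by 0.55 ± 0.10 (SE; 95% interval -0.80 to -0.31; limma adjusted p = 0.0161), or 1.47-fold.

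Fdps, which makes farnesyl diphosphate for both sterols and prenyl groups, measured 5.85 and 5.94 in WT and 5.50 on both KO arrays. The KO arrays agreed exactly and lay below both WT arrays. It fell by 0.40 ± 0.10 (SE; limma adjusted p = 0.0427), or 1.32-fold. With the replicate number as a block its adjusted p was 0.0715, and without 1 array at a time it was 0.1 without WT replicate 1, 0.154 without WT replicate 2, and 0.158 without either KO array. The fall of Hmgcs1 passed without WT replicate 2 (adjusted p = 0.0318) and did not without WT replicate 1 (0.0776), KO replicate 1 (0.0954) or KO replicate 2 (0.0739).

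Ggps1, the branch enzyme that makes geranylgeranyl diphosphate from the product of Fdps, measured 6.10 and 6.03 in WT and 6.36 and 6.52 in KO. Both KO arrays were above both WT arrays, yet the difference of 0.37 ± 0.11 did not pass (limma adjusted p = 0.0707). It passed with the dimmer genes left out of the adjustment (adjusted p = 0.0429), and over all alternatives its adjusted p ran from 0.0429 to 0.269. The enzyme that makes farnesyl diphosphate and one that uses it thus had differences of opposite sign, and Fdps alone passed the test.

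The genes between Hmgcs1 and Fdps showed no call. Mvk, the mevalonate kinase, measured 5.21 and 5.23 in WT and 4.84 and 5.04 in KO, a difference of -0.28 ± 0.11 (limma adjusted p = 0.168) with the groups apart. Pmvk, the next kinase, measured 5.12 and 4.98 in WT and 4.80 and 5.27 in KO, so the KO arrays lay on either side of the WT arrays. Mvd, the decarboxylase, measured 5.97 and 6.41 in WT and 6.23 and 6.33 in KO, with the wider spread in WT. Idi1, the isomerase that makes the active isoprenoid unit, measured 6.74 and 6.76 in WT and 6.76 and 7.13 in KO, so KO replicate 2 stood alone above 3 nearly equal arrays. A second Idi1 probe set showed the same order in KO, with 6.58 and 6.57 in WT and 6.52 and 6.92 in KO.

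**Figure D2:**
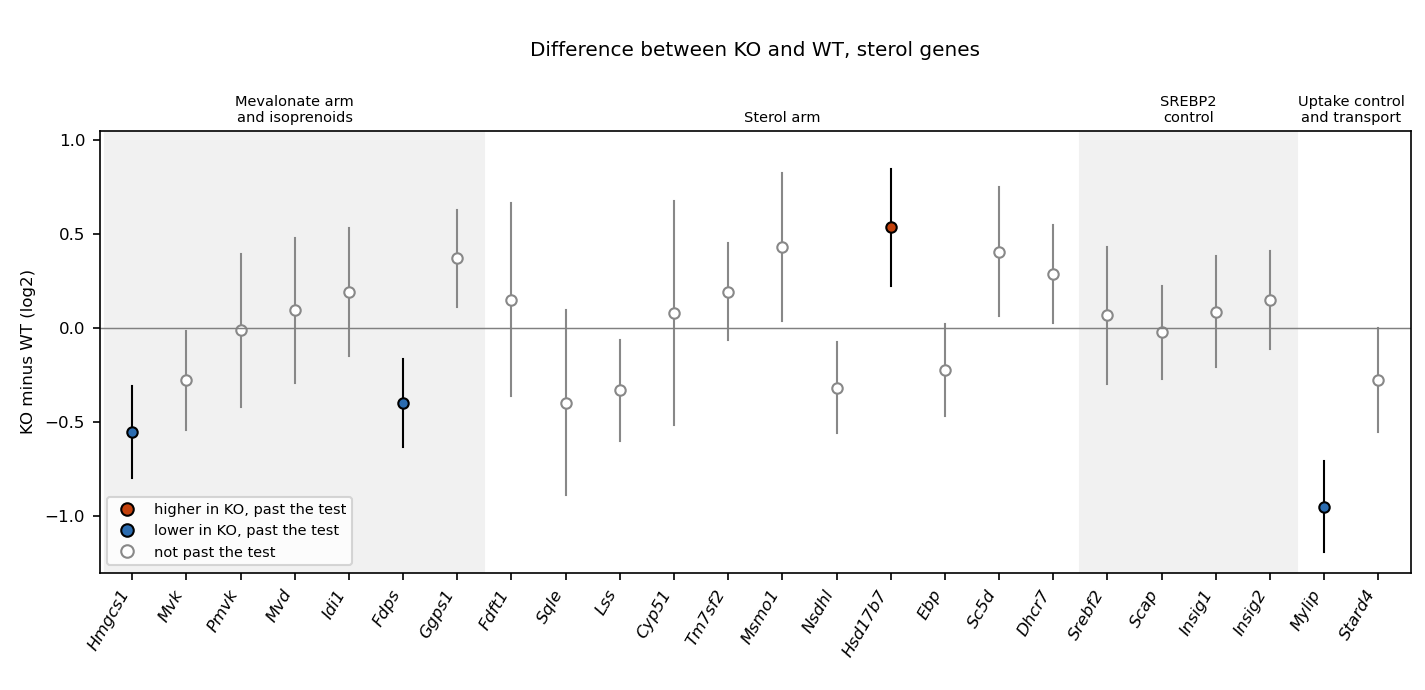
Points are the KO minus WT differences (log2) of the 24 sterol genes, ordered by step, and bars are 95% intervals of the limma fit for each gene on its own. Filled points passed the test over all genes: Hmgcs1, Fdps and Mylip lower and Hsd17b7 higher.

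In the sterol arm 1 of 11 measured genes was higher (9.09%) and 0 lower, against 7.41% and 6.86% of all genes. The remaining 10 did not pass, and the median was 0.15. Hsd17b7, a ketoreductase that acts while the methyl groups of lanosterol are removed, measured 6.09 and 6.20 in WT and 6.54 and 6.83 in KO. Both KO arrays were above both WT arrays. It rose by 0.54 ± 0.13 (SE; 95% interval 0.23 to 0.85; limma adjusted p = 0.0405), or 1.45-fold. It did not pass when any 1 array was left out, with an adjusted p of 0.154 and 0.0721 for WT replicates 1 and 2 and of 0.0512 and 0.171 for KO replicates 1 and 2.

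In 9 of the 11 sterol arm genes the groups did not overlap, 5 with KO above and 4 with KO below. Over all 24 genes this held for 16 (66.7%), 7 with KO above and 9 below, against 55.3% of all genes tested, 25.3% above and 30% below. A gap between groups of 2 arrays was thus common in these data, and most of these genes did not pass the test.

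The sterol arm genes with KO above were, besides Hsd17b7, the methyl oxidase Msmo1, the desaturase Sc5d, the reductase Tm7sf2 and Dhcr7, the reductase of the last step. Msmo1 measured 7.39 and 7.49 in WT and 7.65 and 8.10 in KO, a difference of 0.43 ± 0.16 (limma adjusted p = 0.15). Sc5d measured 5.28 and 5.56 in WT and 5.70 and 5.95 in KO (0.41 ± 0.14, limma adjusted p = 0.124). The 2 replicates of Sc5d differed about as much within each group. Dhcr7 measured 6.60 and 6.64 in WT and 6.82 and 7.001 in KO (0.29 ± 0.11, limma adjusted p = 0.145). Tm7sf2 measured 4.32 and 4.14 in WT and 4.42 and 4.43 in KO (0.19 ± 0.11), and its KO arrays lay close together just above WT replicate 1.

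The sterol arm genes with KO below were the squalene epoxidase gene Sqle, the lanosterol synthase gene Lss, the dehydrogenase gene Nsdhl and the isomerase gene Ebp. Sqle, a rate-limiting oxygenase, measured 5.69 and 5.56 in WT and 4.92 and 5.54 in KO. KO replicate 2 lay just under WT replicate 2, and the difference was -0.39 ± 0.20 (limma adjusted p = 0.288). Without KO replicate 2 it was -0.70 (adjusted p = 0.0483) and without KO replicate 1 it was -0.09 (adjusted p = 0.789). Lss measured 5.38 and 5.37 in WT and 4.94 and 5.15 in KO (-0.33 ± 0.11, limma adjusted p = 0.113). Nsdhl measured 7.04 and 6.95 in WT and 6.64 and 6.72 in KO (-0.31 ± 0.10, limma adjusted p = 0.0979), with close replicates. Ebp measured 6.98 and 6.87 in WT and 6.74 and 6.67 in KO (-0.22 ± 0.10).

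The groups overlapped for Fdft1 and Cyp51. Fdft1, the squalene synthase that commits isoprenoids to sterols, measured 6.66 and 6.61 in WT and 6.45 and 7.12 in KO. The KO arrays thus lay on both sides of the WT arrays and 0.66 apart. Cyp51, the lanosterol demethylase, measured 6.19 and 6.64 in WT and 6.17 and 6.83 in KO. Its replicates were far apart in both groups, and the 95% interval of its difference, -0.51 to 0.68, was the widest of the 24 genes.

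The SREBP2 control system gave no call in its 4 genes, with a median of 0.08. Srebf2, which encodes SREBP2 and is one of its own targets, measured 7.59 and 7.68 in WT and 7.51 and 7.91 in KO (0.07 ± 0.15, 95% interval -0.29 to 0.44). Insig1, also a target of SREBP2, measured 7.91 and 7.97 in WT and 7.89 and 8.16 in KO (0.09 ± 0.12, 95% interval -0.21 to 0.38). In both genes KO replicate 2 was the highest array and KO replicate 1 the lowest. Insig2 measured 5.88 and 5.71 in WT and 5.91 and 5.98 in KO (0.15 ± 0.11), with the KO arrays just above the WT arrays. Scap measured 6.90 and 6.95 in WT and 6.84 and 6.97 in KO (-0.02 ± 0.10, 95% interval -0.27 to 0.22), and a second, dimmer Scap probe set lay between 3.35 and 3.43 on all arrays.

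Stard4, a soluble protein that carries cholesterol between membranes, measured 5.19 and 5.29 in WT and 4.86 and 5.07 in KO. Both KO arrays lay below the WT arrays, and the difference of -0.28 ± 0.11 did not pass (limma adjusted p = 0.192).

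The KO pools differed from each other in these genes more than the WT pools did. KO replicate 2 was above KO replicate 1 in 21 of the 24 genes, below it in Mylip and Ebp and equal to it in Fdps. Over all genes tested KO replicate 2 was the higher in 50.2%. The median of KO replicate 2 minus KO replicate 1 was 0.20 for the sterol genes and 0.00 for all genes. Gaps over 0.2 in that direction were found in 12 of the 24 genes (50%), against 12.8% of all genes tested. This pattern was noticed after the values were seen, and it is given as a description of 2 pools.

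The widest gaps were in Fdft1 (0.66), Cyp51 (0.66), Sqle (0.61), Pmvk (0.46), Msmo1 (0.45), Srebf2 (0.40) and Idi1 (0.37). The narrowest gaps were in Fdps (0.00), Tm7sf2 (0.01), Hmgcs1 (0.06) and Ebp (-0.07). Both mevalonate arm genes that fell are in this group, but the test weighs a difference against the replicate spread and so favours close arrays. By step, KO replicate 2 was higher in 6 of 7 genes of the mevalonate arm, 10 of 11 of the sterol arm and 4 of 4 of the control genes.

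Between the WT pools the same genes showed no such lean. WT replicate 2 was above WT replicate 1 in 13 genes and below it in 11, with a median of 0.02. Gaps over 0.2 were found in Mvd (0.44), Cyp51 (0.45) and Sc5d (0.27), 3 of 24 genes against 13.9% of all genes tested. The median size of the gap was 0.10 in WT and 0.20 in KO for the sterol genes, and 0.12 in each group for all genes.

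**Figure D3:**
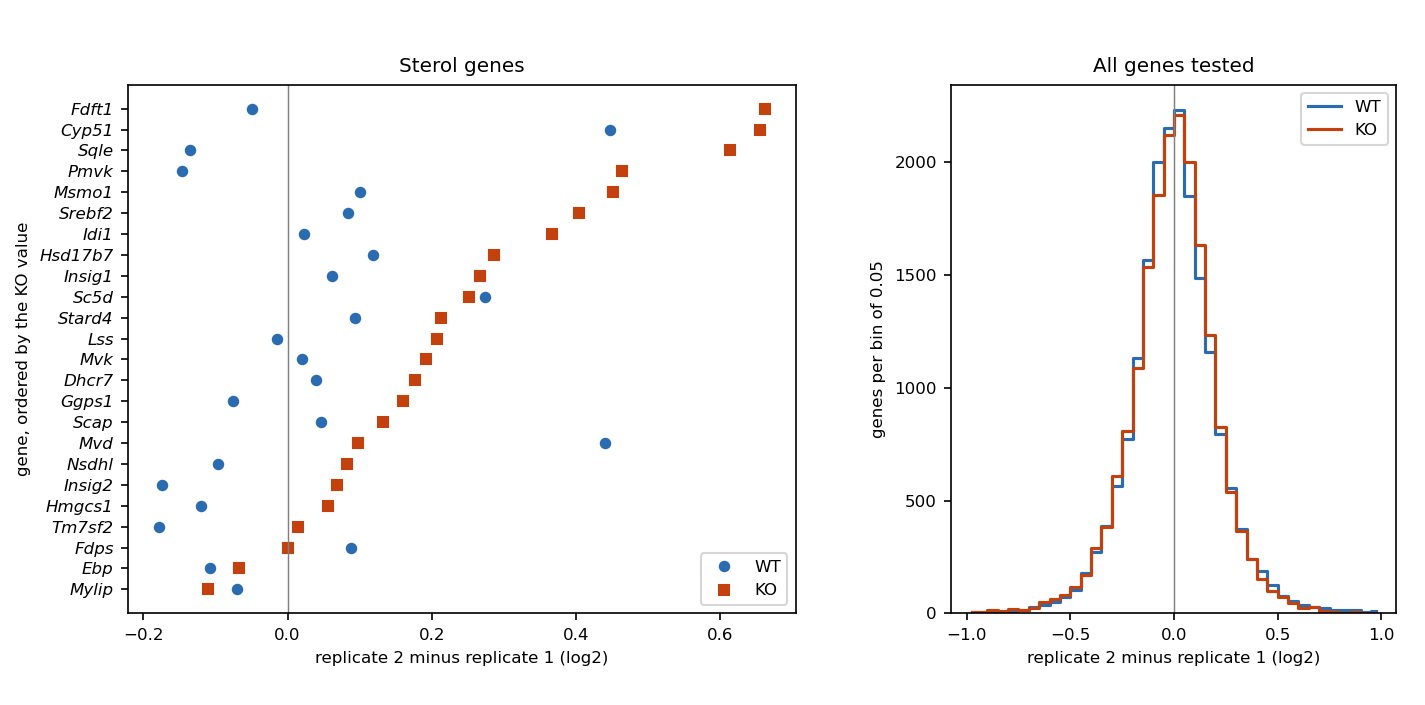
Left, replicate 2 minus replicate 1 (log2) for each sterol gene, with WT as blue circles and KO as orange squares. Right, the same quantity over all genes in bins of 0.05 between -1 and 1, outside which lie 28 genes in KO and 104 in WT; the KO squares lean to the right of 0 while the distribution of all genes is centred there.

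The sign of the group summary depended on which array was left out. Without KO replicate 1 the median difference of the 24 genes was 0.19, and without KO replicate 2 it was -0.15. Without WT replicate 1 it was -0.008, and without WT replicate 2 it was 0.085. Fdft1 (-0.18), Cyp51 (-0.25), Srebf2 (-0.13) and Insig1 (-0.05) were negative without KO replicate 2 and positive with it. Other lists also differed between the KO pools. The 6 dendritic cell markers were all higher in KO replicate 2 with a median gap of 0.32. Of these, Zbtb46 and Xcr1 lay at or below the array median on every array. In KO replicate 2, 8 of 11 alveolar macrophage markers were higher (median 0.16), and 7 of 9 interstitial macrophage markers were lower (median -0.19). Also lower there were 5 of 6 monocyte markers (median -0.05), among them Ccr2 and Cx3cr1 of the interstitial list. So were 4 of 6 neutrophil markers (-0.32) and 5 of 8 type 2 epithelial markers (-0.19). The same held for 3 of 5 eosinophil markers (-0.11) and 2 of 3 endothelial markers (-0.13), while 3 of 5 lymphocyte markers were higher (0.12). Over all genes KO replicate 2 was the higher in 50.2%. The part of these lists in the sterol gene gaps was not tested.

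Promoters are shown for the changed genes that RefSeq promoter tables of build GRCm38.p6 held, Hmgcs1, Hsd17b7 and Mylip, and for Cyp51, Pmvk and Msmo1, the 3 of the 5 genes with the widest KO gaps that had an entry. Pmvk has 2 start sites there. Each runs from 250 bases before to 50 after the transcription start, 5′ to 3′ on the gene's strand. Capitals mark matches on either strand to the NF-Y motif CCAAT, the Sp1 motif GGGCGG and the sterol regulatory element TCACNCCAC, which do not overlap here.
Hmgcs1, chr13:119690101-119690400, plus strand: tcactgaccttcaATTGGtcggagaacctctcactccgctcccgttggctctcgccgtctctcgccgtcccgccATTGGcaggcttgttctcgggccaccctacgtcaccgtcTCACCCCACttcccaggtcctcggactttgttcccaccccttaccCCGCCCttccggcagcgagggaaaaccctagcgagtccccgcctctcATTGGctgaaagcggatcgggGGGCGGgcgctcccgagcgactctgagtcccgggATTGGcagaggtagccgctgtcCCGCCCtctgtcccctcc
Hsd17b7, chr1:169969156-169969455, minus strand: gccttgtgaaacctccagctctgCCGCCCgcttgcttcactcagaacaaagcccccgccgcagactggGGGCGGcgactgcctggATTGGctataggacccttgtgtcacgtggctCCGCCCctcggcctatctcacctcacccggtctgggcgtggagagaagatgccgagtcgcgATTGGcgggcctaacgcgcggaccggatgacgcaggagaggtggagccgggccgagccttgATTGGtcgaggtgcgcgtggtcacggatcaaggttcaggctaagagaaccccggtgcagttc
Mylip, chr13:45389492-45389791, plus strand: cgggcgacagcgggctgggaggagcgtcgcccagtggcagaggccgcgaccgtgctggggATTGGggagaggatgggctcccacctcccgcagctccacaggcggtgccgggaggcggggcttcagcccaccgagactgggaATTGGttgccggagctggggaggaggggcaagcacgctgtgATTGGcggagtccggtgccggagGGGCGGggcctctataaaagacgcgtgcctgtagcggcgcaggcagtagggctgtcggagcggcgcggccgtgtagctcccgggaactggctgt
Cyp51, chr5:4104648-4104947, minus strand: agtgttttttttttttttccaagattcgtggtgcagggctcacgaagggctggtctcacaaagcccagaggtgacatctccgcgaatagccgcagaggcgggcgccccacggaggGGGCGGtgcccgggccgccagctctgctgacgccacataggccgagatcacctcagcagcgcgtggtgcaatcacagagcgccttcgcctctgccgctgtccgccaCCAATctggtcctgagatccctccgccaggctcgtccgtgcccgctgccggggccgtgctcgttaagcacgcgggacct
Pmvk, chr3:89454291-89454590, plus strand: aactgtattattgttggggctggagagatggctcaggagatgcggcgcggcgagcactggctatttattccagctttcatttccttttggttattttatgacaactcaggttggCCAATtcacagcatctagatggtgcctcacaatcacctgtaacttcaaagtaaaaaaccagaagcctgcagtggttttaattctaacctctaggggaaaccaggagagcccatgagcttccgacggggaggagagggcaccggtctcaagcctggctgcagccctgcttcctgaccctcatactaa
Pmvk, chr3:89459321-89459620, plus strand: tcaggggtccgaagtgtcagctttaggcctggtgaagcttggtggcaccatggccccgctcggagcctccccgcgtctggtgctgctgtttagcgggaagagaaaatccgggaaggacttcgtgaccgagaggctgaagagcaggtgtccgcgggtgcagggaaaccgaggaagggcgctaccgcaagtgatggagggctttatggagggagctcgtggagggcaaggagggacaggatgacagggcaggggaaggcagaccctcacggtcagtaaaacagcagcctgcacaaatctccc
Msmo1, chr8:64733529-64733828, minus strand: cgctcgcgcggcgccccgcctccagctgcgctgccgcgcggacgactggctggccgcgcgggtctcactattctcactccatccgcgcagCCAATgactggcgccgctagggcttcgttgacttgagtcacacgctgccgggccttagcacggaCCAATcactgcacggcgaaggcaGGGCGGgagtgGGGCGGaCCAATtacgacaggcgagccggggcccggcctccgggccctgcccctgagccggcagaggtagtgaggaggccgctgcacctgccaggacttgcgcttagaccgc

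NF-Y and Sp1 are known partners of SREBP2 on sterol gene promoters. Of the 24 measured genes 20 had a promoter in the table, with 26 start sites between them. CCAAT was found in 19 of these 26 promoters (73.1%), against 37.4% of all 32851 promoters in the table, and GGGCGG in 21 (80.8%), against 35.7%. These contrasts were not tested, and the promoters were not matched for expression or base content. Hmgcs1 held 4 CCAAT and 3 GGGCGG matches, Hsd17b7 held 3 and 3, and Mylip held 3 and 1. Cyp51 held 1 and 1, and Msmo1 held 3 and 2. The first Pmvk promoter held 1 CCAAT and 0 GGGCGG matches, and the second held 0 of either. TCACNCCAC matched in Hmgcs1 alone of the 26 promoters (3.85%, against 1.24% of all promoters), and the stricter form, with C as its open letter and AT in place of its first T, in 0 of 26 (0.0913% of all). The direct repeat of PPAR and RXR, AGGTCA written again after any 1 base, was found in 0 of 26 (0.0396% of all). The stricter sterol element and this repeat are so rare over all promoters that 0 of 26 cannot tell whether sterol genes hold fewer. Both strands were searched for each motif, and a match describes letters, not binding.

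Genes next to the pathway were read from 5 lists of 62 genes, of which 54 were measured. Together 9 were higher and 7 lower, and 38 did not pass. The 16 that passed were 29.6% of the 54, against 14.3% of all genes (7.41% higher and 6.86% lower). The lists were chosen with earlier results of these data known, so the larger share is not evidence about the pathway. The same shares of all genes apply to the counts of each list below. The median differences of the lists lay between -0.17 and 0.12, against -0.02 for all genes.

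Enzymes that modify oxysterols, the oxidised forms of cholesterol, held the largest single difference of these lists. Among 5 genes 2 were higher and 1 lower, and 2 did not pass. Hsd3b7, a dehydrogenase that acts on oxysterols on the way to bile acids, measured 8.85 and 8.42 in WT and 6.69 and 6.58 in KO. It fell by 2.00 ± 0.16 (SE; limma adjusted p = 7.03e-04). This is the brighter of its 2 probe sets, and the mean of both gave a smaller fall, -1.70. Ch25h, which hydroxylates the cholesterol side chain, measured 6.90 and 7.07 in WT and 8.39 and 8.09 in KO and rose by 1.26 ± 0.14 (limma adjusted p = 0.00218). Cyp27a1, the mitochondrial sterol hydroxylase, measured 4.38 and 4.69 in WT and 5.59 and 5.68 in KO and rose by 1.10 ± 0.13 (limma adjusted p = 0.00321). In all 3 genes the groups lay well apart, and each passed whichever array was left out. Cyp7b1 and Cyp46a1 measured under 2.57 on every array, below the array median.

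Lipoprotein uptake, lysosomal release and sterol transport were covered by 15 measured genes. Of these 4 were higher and 2 lower, and 9 did not pass. Lrpap1, a chaperone for receptors of the LDL receptor family, measured 8.05 and 8.43 in WT and 9.74 and 9.54 in KO and rose by 1.40 ± 0.15 (limma adjusted p = 0.00235). Gramd1b and Gramd1a, which move cholesterol from the plasma membrane to the endoplasmic reticulum, rose by 0.94 ± 0.11 (limma adjusted p = 0.00301) and 0.73 ± 0.11 (limma adjusted p = 0.00794). Gramd1b measured 6.38 and 6.18 in WT and 7.20 and 7.22 in KO, and Gramd1a measured 6.70 and 6.86 against 7.44 and 7.57. Npc2, the cholesterol-binding protein of the lysosome, rose by 0.51 ± 0.10 (limma adjusted p = 0.0223). Lrpap1 and Gramd1b passed whichever array was left out, Gramd1a failed when KO replicate 2 was (adjusted p = 0.0594), and Npc2 failed in each such fit (0.0544 to 0.122). Lipa, the lysosomal lipase, measured 10.16 to 10.34 in WT and 10.31 to 10.38 in KO (0.09 ± 0.11).

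The lower genes of that list were Scp2, a sterol carrier protein (-0.54 ± 0.11, limma adjusted p = 0.0223), and Nceh1. Nceh1 encodes a hydrolase that frees cholesterol from its esters, the reverse of the step that Soat1 and Soat2 catalyse. It measured 10.58 and 10.40 in WT and 9.85 and 10.03 in KO and fell by 0.55 ± 0.12 (limma adjusted p = 0.0281). The KO arrays lay below both WT arrays. With the replicate number as a block its adjusted p was 0.051. When WT replicate 1, KO replicate 1 or KO replicate 2 was left out, 0 genes of the list were lower. Nceh1 then had adjusted p = 0.12, 0.148 and 0.0697, and Scp2 had 0.101, 0.0675 and 0.122.

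SREBP processing and sterol-dependent degradation were covered by 11 measured genes, with 3 higher, 1 lower and 7 that did not pass. Rnf145, a ubiquitin ligase of the endoplasmic reticulum that responds to sterols, measured 5.64 and 5.69 in WT and 6.47 and 6.34 in KO and rose by 0.74 ± 0.10 (limma adjusted p = 0.00529). Erlin1, a membrane protein that binds the SREBP, SCAP and INSIG complex (0.51 ± 0.10, limma adjusted p = 0.02), and the ligase gene Syvn1 (0.58 ± 0.12, limma adjusted p = 0.0246) were higher. The related ligase gene Rnf139 was lower (-0.43 ± 0.10, limma adjusted p = 0.0353; 0.0636 with the replicate block). Rnf145 passed whichever array was left out, Syvn1 passed without WT replicate 2 alone, and neither Erlin1 (adjusted p from 0.0658 to 0.111) nor Rnf139 (0.0868 to 0.162) passed when any 1 array was left out. Leaving out WT replicate 1, KO replicate 1 or KO replicate 2 gave Syvn1 an adjusted p of 0.0979, 0.122 and 0.116. Srebf1, which encodes SREBP1, measured 6.89 and 6.50 in WT and 5.98 and 6.19 in KO, and its difference of -0.61 ± 0.16 lay at the threshold without passing (limma adjusted p = 0.0506). It passed under 5 of 9 alternatives, with adjusted p from 0.0186 without WT replicate 2 to 0.231 without KO replicate 1. Mbtps1, the first protease that cuts SREBP, differed by 0.11 ± 0.10.

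Of 16 measured genes that use isoprenoids, Trit1, which prenylates transfer RNA, was lower (-0.63 ± 0.10, limma adjusted p = 0.0112), 0 were higher and 15 did not pass. Trit1 had adjusted p = 0.0545 without WT replicate 1 and 0.077 without KO replicate 1. The protein prenyltransferase genes Fnta (-0.25 ± 0.11), Fntb (0.37 ± 0.10) and Pggt1b (0.02 ± 0.14) did not pass. Of 7 measured genes of acetyl-CoA supply and electron donors, 0 were higher and 2 lower. Slc25a1, the mitochondrial citrate carrier, fell by 0.60 ± 0.13 (limma adjusted p = 0.0293), and Cyb5a, the cytochrome that donates electrons to sterol enzymes, by 0.50 ± 0.11 (limma adjusted p = 0.0307). Leaving out WT replicate 2 kept the call of Slc25a1, while leaving out WT replicate 1, KO replicate 1 or KO replicate 2 ended it (adjusted p = 0.112, 0.157 and 0.0923). Cyb5a lost its call whichever array was left out (0.0601 to 0.148). Acly, which turns citrate into cytosolic acetyl-CoA, measured 8.21 and 8.50 in WT and 8.37 and 8.43 in KO (0.04 ± 0.13).

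**Figure D4:**
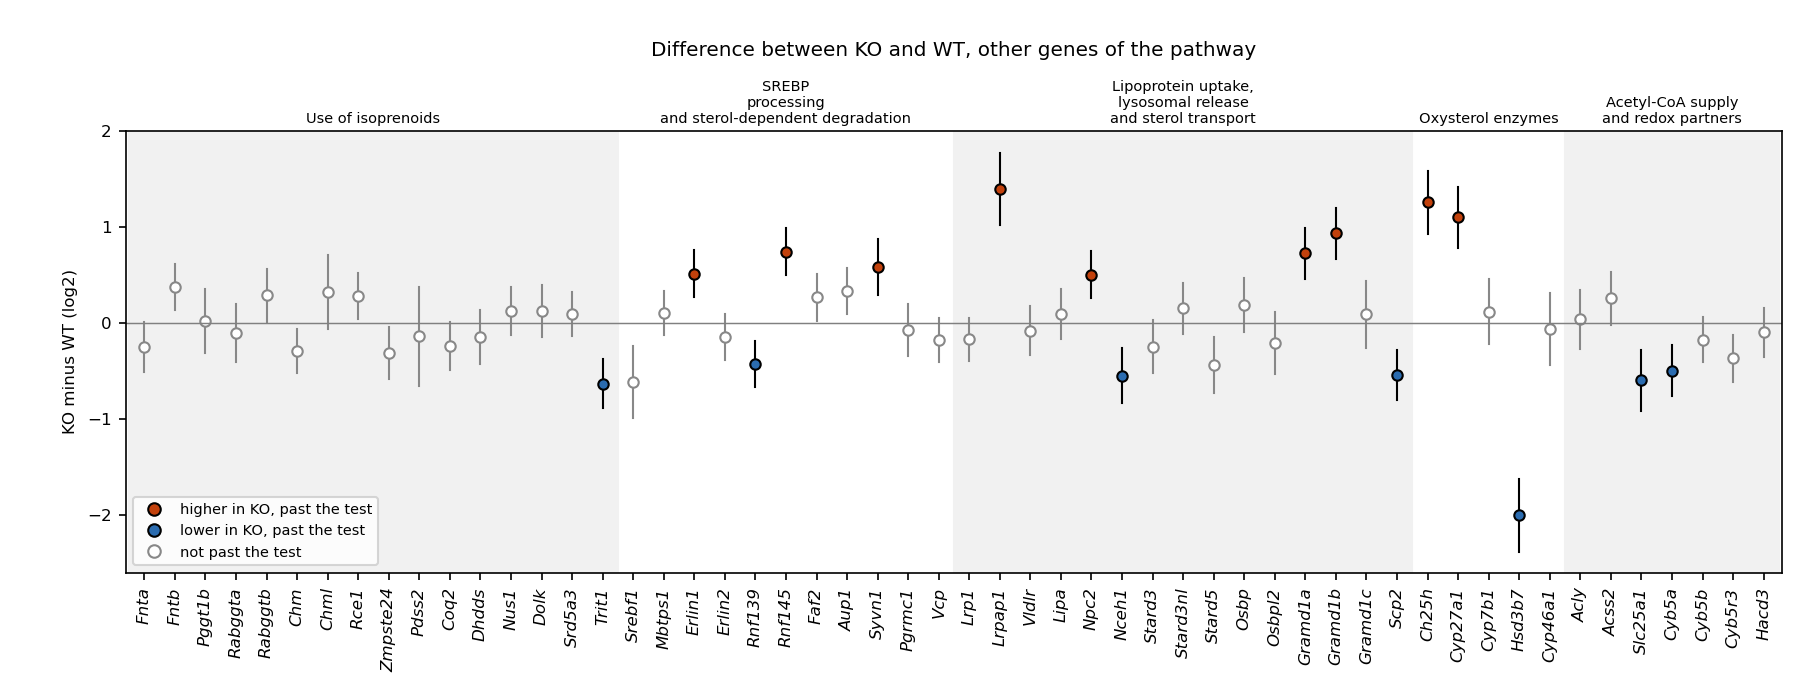
Points are the KO minus WT differences (log2) of 54 genes next to the pathway in 5 lists, with 95% intervals of the limma fit for each gene on its own. Filled points passed the test over all genes, from Hsd3b7 at -2.00 to Lrpap1 at 1.40.

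The replicate gap of the KO pools was also read in these neighbouring genes. KO replicate 2 was above KO replicate 1 in 30 of the 54 genes, with a median of 0.02, and by over 0.2 in 6. In the sterol genes it was above in 21 of 24, with a median of 0.20. The difference between these counts was not tested.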

How the data were processed

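The deposited table held log2 expression values of 28371 probe sets on 4 arrays, made by the authors with RMA under R 2.15.2, according to the submitters' processing notes. This method corrects background, gives all arrays 1 distribution and summarises probes, so a shift of most transcripts would not be seen and folds of dim genes are understated. The genome build is not given in the sources used here. Probe sets were named from the platform annotation: 21158 had 1 symbol, 1881 several and 5332 none, and those with 1 gave 18782 genes, by the probe set with the highest mean.

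The comparison of KO with WT used limma 3.58.1 under R 4.3.3 (group as the only term, empirical Bayes, two-sided, Benjamini-Hochberg over all genes), with 2 residual and 4.16 prior degrees of freedom. A gene passed at an adjusted p under 0.05. The procedure was tested on simulated data. Replicates are pools of 2 mice, and the number of arrays limits the precision.

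Every sterol gene is named. Of each neighbouring list the genes named are up to 4 with the smallest p among those that passed. Further genes were picked with their values in view: the marker genes named, Npc2, Nceh1, Lipa, Cyp7b1, Cyp46a1, Srebf1, Mbtps1, Fnta, Fntb, Pggt1b and Acly. The sterol genes and all lists were chosen with earlier results of these data known, and the motif TCACNCCAC was added after the files were read. The alternatives were a replicate block, an intensity trend, leaving out dimmer genes, centring on brighter genes, the mean of all probe sets, and leaving out each array.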

Additional observations from a re-analysis of the deposited data

How the results depend on the processing

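With 2 arrays per group, fits without 1 array hold a single array of a group, which is assumed to vary like the other group. Without 1 array, between 726 and 1227 genes were higher in KO (1391 with all arrays) and between 647 and 1057 lower (1289). Of the sterol genes 0 were higher (1 with all arrays; 11 of the 24, or 45.8%, had an unadjusted limma p under 0.05 with all arrays, against 26.7% of all genes) and 1 or 2 lower (3), and their median ran from -0.15 to 0.19 (0.08). With dimmer genes left out 2 sterol genes were higher, Hsd17b7 and Ggps1. Differences that changed sign without 1 array, none past the test, ranged from -0.24 to 0.22 for Pmvk, -0.12 to 0.32 for Mvd, -0.18 to 0.48 for Fdft1, -0.25 to 0.41 for Cyp51, -0.13 to 0.27 for Srebf2, -0.088 to 0.045 for Scap and -0.046 to 0.22 for Insig1. Under the intensity trend, the centring and the mean of probe sets, the 24 genes kept their direction and their side of the threshold. The replicate numbers are not stated to pair the arrays, and same-numbered deviations had a correlation of -0.017 over genes. With the replicate block 1309 genes were higher and 1168 lower, 1 sterol gene was higher and 2 lower (Fdps lost), and no other sterol gene changed its call.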

Other observations

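Probe sets with the symbols of Fdft1 and Ctsb together, which belong to no comparison above, read 6.88 and 6.66 in WT and 6.58 and 7.18 in KO for one, and 10.05 and 9.99 in WT and 10.49 and 10.45 in KO for the other. The dimmer one had a gap of 0.60 between the KO arrays, against 0.66 for the probe set of Fdft1 alone, and the brighter one a gap of -0.04.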
